A study of Mus musculus with 6 samples.

Results

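The CCN genes are a family of 6 genes that encode secreted matricellular proteins, and their expression was examined in mouse airway epithelial organoids plated as a flat culture (2D-MAOs), with and without TGF-β1. The members were *Ccn1*, *Ccn2*, *Ccn3*, *Ccn4*, *Ccn5* and *Ccn6*, which is the whole family by gene name, out of 22910 genes that could be named on the array. The family was chosen with its TGF-β1 response in these arrays known, and its members were selected on gene name and compared by the difference between TGF-β1-treated and control arrays. For this reason, no p-value is given for the members, and counts of members called are given only as a description. All 6 members had a probe on the array, and 4 of them passed the filter on dim probes.

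The 2D-MAOs were lung airway epithelial cells of C57BL/6 mice, grown as organoids, dissociated and plated as a flat sheet on collagen type IA. Both groups were kept in medium that lacked noggin, an inhibitor of BMP, and A83-01, an inhibitor of the TGF-β receptor, so the controls were also free of these inhibitors. TGF-β1 was given to 3 cultures from day 3, 3 control cultures received none, and all cultures were collected on day 7. The concentration used for the arrays, the age of the mice and the number of mice were not given in the sources used here. Total RNA of each culture was labelled with 1 dye and hybridised to 1 array. Because a sheet of mixed airway cells was measured as a whole, fewer cells of a type and less RNA per cell cannot be told apart.

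CCN proteins are built from modules, of which the first resembles the insulin-like growth factor (IGF) binding proteins and the last is a cystine knot. They bind integrins, the receptor LRP1 and heparan sulphate proteoglycans at the cell surface and in the matrix. *Ccn2*, formerly *Ctgf*, is known as a target gene of TGF-β signalling in many tissues, and *Ccn1*, formerly *Cyr61*, and *Ccn2* are known as targets of the transcription factors YAP and TEAD. *Ccn4* and *Ccn5*, formerly *Wisp1* and *Wisp2*, were first described as genes induced by Wnt1.

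Promoter sequence is shown for *Ccn1*, since it is 1 of the 2 members with an entry in the RefSeq promoter table (GRCm38.p6), the other being *Ccn6*, which was not detected here. The 250 bases before the start of *Ccn1*, chr3:145649986-145650235 on the minus strand, are printed 5′ to 3′. Capitals mark a match to the TEAD motif GGAATG, here on the reverse strand, and a match to the TATA box TATAAA.
Ccn1: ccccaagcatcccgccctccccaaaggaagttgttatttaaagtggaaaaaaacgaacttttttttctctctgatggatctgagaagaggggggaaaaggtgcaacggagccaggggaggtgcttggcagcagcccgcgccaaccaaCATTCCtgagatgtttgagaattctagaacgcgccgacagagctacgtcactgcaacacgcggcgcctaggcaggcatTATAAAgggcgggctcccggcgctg
Relative to the start, the TEAD match lay at -103 to -98 and the TATA box at -25 to -20, so that they did not overlap. Of 32851 windows of the same length from the promoters of 27025 genes, 12.6% held GGAATG and 12.4% held TATAAA on either strand. The *Ccn1* window held no match to the Smad box CAGAC (42.2% of windows), the AP-1 site TGAGTCA (4.46%), the cyclic AMP response element TGACGTCA (1.55%) or the CArG box (1.47%). In the window of *Ccn6*, 1 Smad box was found and none of the other motifs. These are matches of letters only.

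Facts of the arrays bear on every value below. The 6 arrays lay on 1 slide and were scanned at 1 time. Replicate 3 of each group lay in slide row 2, and the other 4 arrays lay in row 1. Between 55.0% and 59.0% of probes were well above background per array, and no spot for a transcript was saturated. TGF-β1 replicate 3 stood apart. It lay at a distance of 61.1 and 62.3 from the other TGF-β1 arrays and of 54.4 to 60.9 from the controls, where the distance is Euclidean over the log2 signals of 14347 genes. Results are therefore also given without it. Of 15 markers of airway and alveolar epithelium, 12 were well above background on all 6 arrays, among them *Epcam*, *Cdh1*, *Krt5* and *Ager*, while *Muc5ac*, *Muc5b* and *Sftpc* were not above it on any array. *Foxj1*, a marker of ciliated cells, rose by 1.47 (limma adjusted p = 0.00239), with 7.56, 7.55 and 7.64 in controls and 9.02, 9.09 and 9.05 after TGF-β1. *Scgb1a1*, a marker of club cells, had -2.27 (limma adjusted p = 0.158), with 10.83, 10.18 and 7.77 in controls and 7.00, 7.57 and 7.42 after TGF-β1. The part of these epithelial cell types in the CCN differences was not tested.

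The family fell into 3 kinds. *Ccn1*, *Ccn2* and *Ccn4* had a higher signal on every TGF-β1 array than on any control array, *Ccn3* was measured on all arrays with overlapping groups, and *Ccn5* and *Ccn6* were not well above background on any array. Values below are quantile-normalized signals on the log2 scale, where 1 unit is 2-fold. Differences are TGF-β1 minus control and carry the standard error (SE) of the limma fit. Brightness depends on the probe, so that levels are compared between arrays and never between genes.

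**Figure D1:**
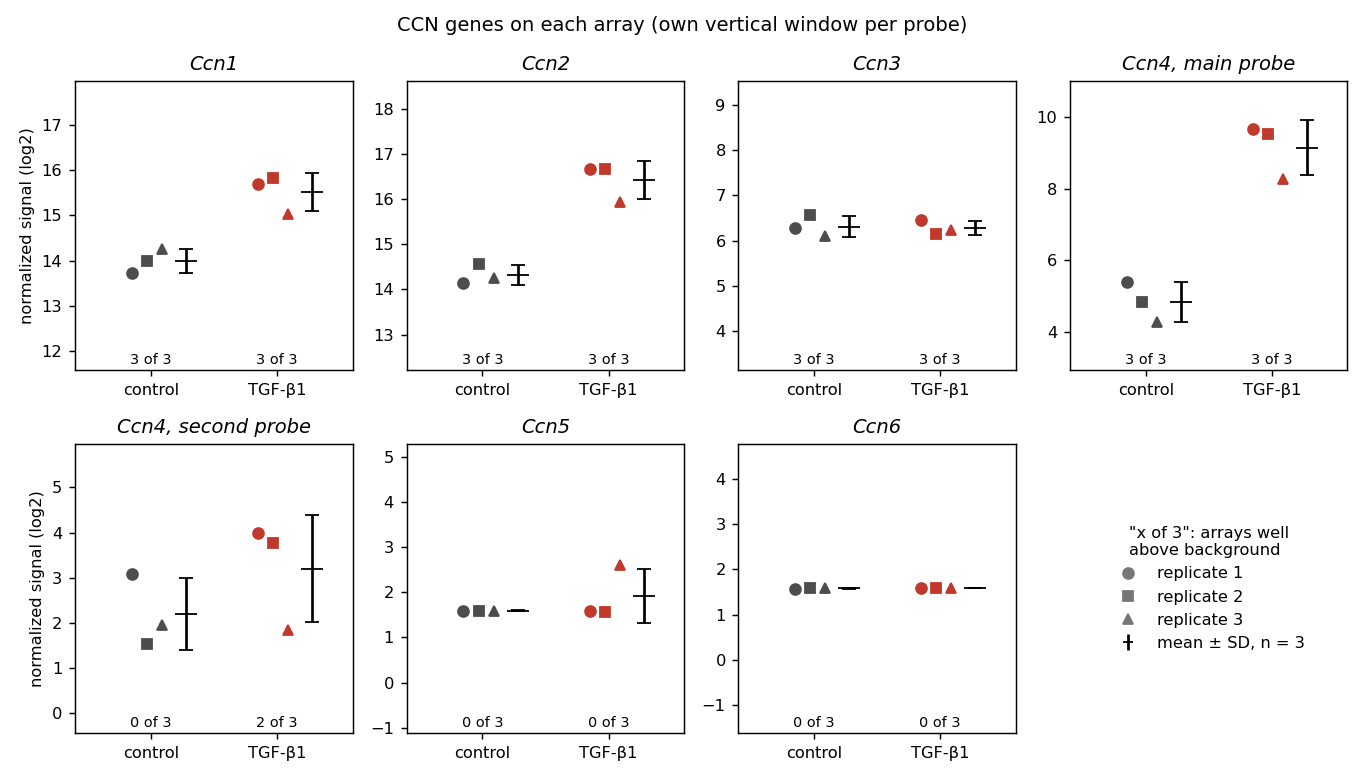
Normalized log2 signal (vertical axis, with its own window for each probe) of the 7 probes for CCN genes in control (grey) and TGF-β1-treated (red) 2D-MAOs. Each symbol is 1 array (circle, square and triangle for replicates 1, 2 and 3), bars show mean ± SD (n = 3), and the count at the bottom is the number of arrays well above background. Groups are apart for *Ccn1*, *Ccn2* and the main probe of *Ccn4*.

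*Ccn4* encodes a CCN protein that is secreted into the matrix, and its main probe had the largest difference of the family. Its signal was 5.38, 4.84 and 4.27 on control arrays 1, 2 and 3 and 9.67, 9.52 and 8.28 on TGF-β1 arrays 1, 2 and 3. The lowest TGF-β1 array was 2.90 above the highest control array. The means were 4.83 ± 0.55 (SD, n = 3) and 9.16 ± 0.76 (SD, n = 3), a difference of 4.33 (SE 0.43) or 20.0-fold. By size and direction this difference ranked 8 among the 14347 genes tested, counted from the most positive. The control signal was near the background, since the ratio of spot to local background was 1.71 to 2.47 there and 10.8 to 29.0 on the treated arrays. The fold depends on how background is treated, and was smaller with the normexp method (difference 2.71, SE 0.29), where an offset of 50 is added to each signal.

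A second probe for *Ccn4* was much dimmer and gave a less clear picture. Its signal was 3.09, 1.54 and 1.96 in controls and 3.99, 3.76 and 1.84 after TGF-β1, so that the groups overlapped. It was well above background only on TGF-β1 arrays 1 and 2. No fold is given for it, because it was not well above background on any of the control arrays, where the lowest signal of a probe that was lay at 2.46 to 3.96, nor on TGF-β1 replicate 3.

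*Ccn2* encodes connective tissue growth factor, a protein associated with fibrosis. Its signal was 14.15, 14.56 and 14.25 on the control arrays and 16.66, 16.68 and 15.93 on the TGF-β1 arrays. TGF-β1 replicates 1 and 2 were nearly equal, and replicate 3, the lowest of the treated arrays, was 1.37 above the highest control. From 14.32 ± 0.21 to 16.42 ± 0.42 (SD, n = 3 each), the difference was 2.10 (SE 0.23) or 4.29-fold, which ranked 97 among all genes tested. The ratio of spot to local background was high for this probe, 609 to 795 on control arrays and 1965 to 3217 on treated arrays, and the normexp method gave a difference of 2.08.

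*Ccn1* encodes a close relative of the *Ccn2* protein that serves as an integrin ligand. The control arrays gave 13.73, 13.99 and 14.25 and the TGF-β1 arrays 15.70, 15.82 and 15.03. TGF-β1 replicate 3 was the nearest to the controls, 0.78 above the highest of them. Means were 13.99 ± 0.26 and 15.52 ± 0.43 (SD, n = 3 each), and the difference was 1.53 (SE 0.24) or 2.89-fold, which ranked 184 among all genes. Its spots were also bright, with a ratio to local background of 507 to 671 on control and 1006 to 1704 on treated arrays.

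*Ccn3*, formerly *Nov*, encodes a CCN protein known from the nervous system and the skeleton. It was well above background on all 6 arrays, but dimly, with a ratio of spot to local background of 2.84 to 4.34. The signal was 6.27, 6.56 and 6.10 in controls and 6.45, 6.15 and 6.23 after TGF-β1. Every TGF-β1 value lay within the range of the controls. The difference was -0.04 (SE 0.15). It took a positive sign under scaling to the 75th percentile (0.12), under normexp background (0.01), without control replicate 2 (0.09) and without TGF-β1 replicate 2 (0.03).

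*Ccn5* encodes the member that lacks the cystine knot module. Its signal lay between 1.58 and 1.59 in controls, and was 1.58, 1.57 and 2.60 after TGF-β1. Even the value of 2.60, on TGF-β1 replicate 3, was below 3.80, the lowest signal of a probe well above background on that array. *Ccn6*, formerly *Wisp3*, stayed between 1.57 and 1.59 on all 6 arrays. For these 2 genes no fold is given, and their RNA was not detectable with these probes, which does not show that it was absent.

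Across all genes tested, a gene was called when limma gave a Benjamini-Hochberg adjusted p under 0.05 together with a 2-fold change. Of 14347 genes, 198 were called (1.38%), with 171 higher (1.19%) and 27 lower (0.188%) after TGF-β1. Of the 6 CCN genes, 4 passed the filter and 3 met this criterion, all higher, namely *Ccn1*, *Ccn2* and *Ccn4*. This is a count and not a test of the members. The groups did not overlap, with TGF-β1 above control, for the same 3 members and for 12.9% of all genes. Since the family was chosen with this contrast known, nothing is read from these shares or from the calls of members below. Leaving out single arrays changed the count. All 3 genes were called when TGF-β1 replicate 3 was omitted. Without control replicate 2 or 3 *Ccn2* and *Ccn4* were called, with *Ccn1* at 1.53 and 1.66. Without control replicate 1, TGF-β1 replicate 1 or TGF-β1 replicate 2, *Ccn4* was the 1 member called, and there *Ccn1* differed by 1.40, 1.44 and 1.38 and *Ccn2* by 2.02, 1.98 and 1.97.

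The sizes of the differences were steadier than the calls. When any 1 array was omitted, the difference of *Ccn4* stayed between 4.05 and 4.76, that of *Ccn2* between 1.97 and 2.35 and that of *Ccn1* between 1.38 and 1.77. Scaling to the 75th percentile in place of quantiles gave 4.40, 1.89 and 1.30. All 3 were positive in each of the 16 settings in which they were computed, some of which alter only the test and not the difference.

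**Figure D2:**
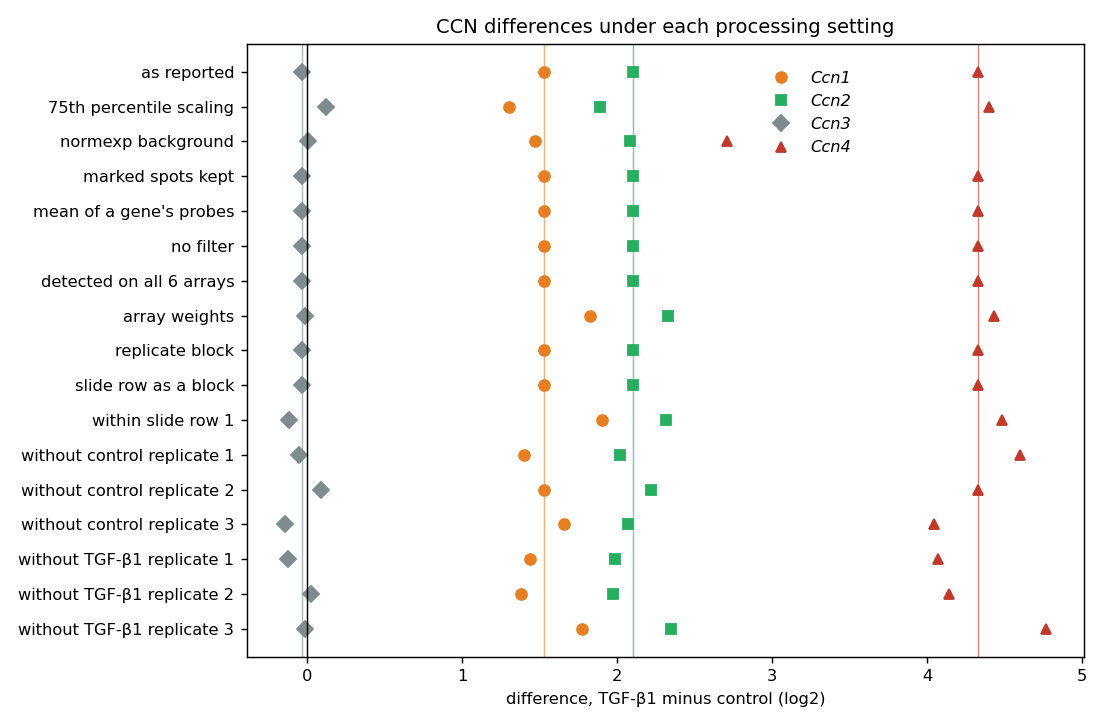
Difference of TGF-β1 minus control (horizontal axis, log2) of the 4 CCN genes that passed the filter, under the reported setting and each alternative (rows). Thin lines mark the reported values. *Ccn4* falls to 2.71 with normexp background, while the symbols of *Ccn3* lie on both sides of 0.

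Values within the slide rows were compared because each row held both groups. In row 1, with 2 arrays per group, the differences were 4.48 for *Ccn4*, 2.31 for *Ccn2*, 1.90 for *Ccn1* and -0.12 for *Ccn3*. In row 2, with 1 array per group and no replicate, they were 4.01, 1.68, 0.78 and 0.13. *Ccn1*, *Ccn2* and *Ccn4* were thus further from control in row 1 than in row 2. This contrast between rows was not tested and is also that between TGF-β1 replicate 3 and the other treated arrays.

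TGF-β1 replicate 3 reached 72.3% of the mean increase of replicates 1 and 2 in *Ccn4*, 68.7% in *Ccn2* and 58.8% in *Ccn1*. For the 168 other genes called higher, the median of this percentage was 78.5% and the interquartile range 66.0% to 97.7%. In 130 of these genes replicate 3 was lower than the mean of the other replicates. The values of *Ccn2* and *Ccn4* lay within this range and that of *Ccn1* lay under it.

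Genes with the most similar pattern were sought for each CCN gene over the 6 arrays, among 13516 genes well above background on all of them. The likeness is Pearson's r over 6 arrays, which fall into the 2 treatment groups, and it is given as a description. For *Ccn4* the closest were *Itgb3* (r = 0.998), *Fam210b* (0.997) and *Tgif1* (0.997), and 199 genes had an r above 0.95. *Ccn2* was closest to *Morrbid* (0.999), *Matn2* (0.998) and *Aif1l* (0.997), with 292 genes above 0.95. *Ccn1* was closest to *Gm20199* (0.998), *Fn1* (0.998) and *Adcy2* (0.997), with 500 genes above it. Once each group's mean was subtracted, r for these 9 genes was 0.954 to 0.998, on the same arrays on which they were selected. For *Ccn3* 3 genes exceeded 0.95, namely *Gm6579* (0.972), *Gstcd* (0.955) and *Eef1akmt2* (0.951).

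**Figure D3:**
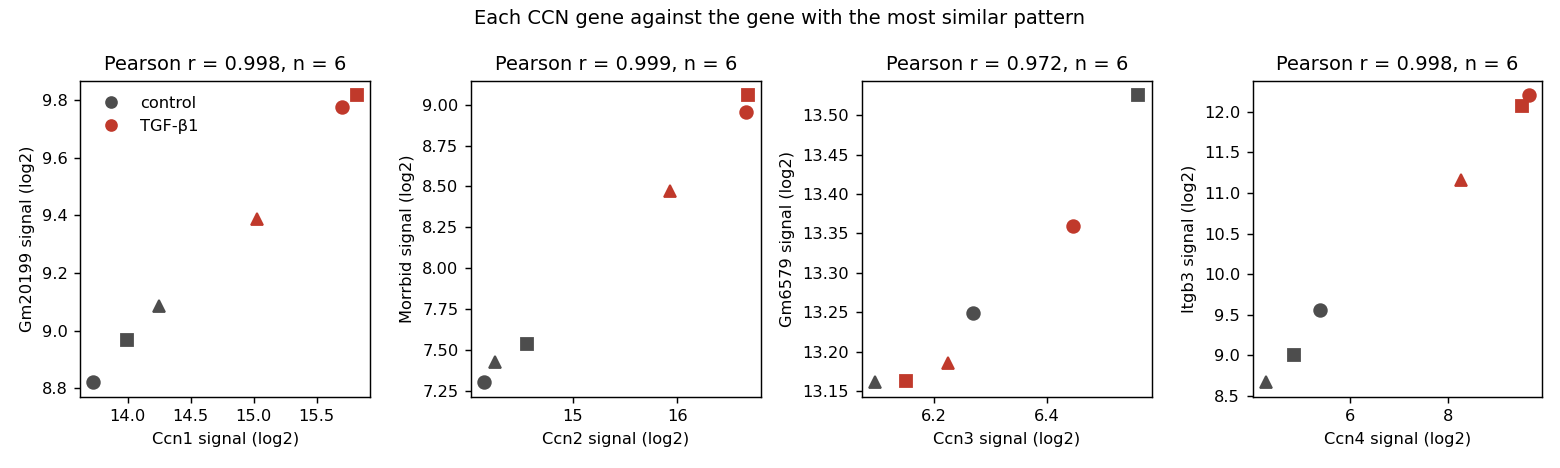
Normalized log2 signal of each CCN gene (horizontal axis) against that of the gene with the highest Pearson r to it (vertical axis). Each symbol is 1 of 6 arrays (grey, control and red, TGF-β1, with circle, square and triangle for replicates 1, 2 and 3). In the panels of *Ccn1*, *Ccn2* and *Ccn4* TGF-β1 replicate 3 lies between the controls and the other treated arrays.

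Surface receptors and binding partners of CCN proteins were followed as a list of 19 genes, of which 17 were tested. Of these, 3 were called higher and none lower, against 1.19% and 0.188% of all genes tested. A positive difference was found for 15 of the 17 and for 6564 of all 14347 genes tested. *Itgb3*, the integrin β3 subunit that pairs with αv, rose from 9.56, 9.01 and 8.67 in controls to 12.20, 12.08 and 11.16, a difference of 2.73 (SE 0.33, limma adjusted p = 0.0141). Its groups were well apart, again with replicate 3 lowest among the treated arrays. *Lrp1*, an endocytic receptor, rose by 1.54 (SE 0.24, limma adjusted p = 0.0315), and *Tnfrsf11b*, which encodes the decoy receptor osteoprotegerin, rose by 1.48 (SE 0.25, limma adjusted p = 0.0405). The median difference of the list was 0.72 against -0.03 for all genes tested.

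Other receptor genes did not pass. *Hspg2*, the gene of the proteoglycan perlecan, had 1.80 (limma adjusted p = 0.118), *Dcn*, the gene of decorin, 1.00 (0.273) and *Itga5*, an integrin subunit that binds fibronectin, 0.99 (0.0592). The partner gene with the largest decrease in value, *Itgb2*, a leukocyte integrin subunit chosen after its value was seen, had -0.61 (limma adjusted p = 0.113). The calls in this list depended on single arrays. *Itgb3* lost its call without control replicate 2 (difference 2.70), TGF-β1 replicate 1 (2.54) or TGF-β1 replicate 2 (2.60), at limma adjusted p of 0.0653 to 0.0695. *Lrp1* lost it without control replicate 1 (1.46) or 2 (1.42) or TGF-β1 replicate 1 (1.46) or 2 (1.43). *Tnfrsf11b* lost it without any array other than TGF-β1 replicate 3, with differences of 1.23 to 1.58 there. Within slide row 2 the differences of *Itgb3*, *Lrp1* and *Tnfrsf11b* were 2.49, 0.73 and 1.26, and within row 1 they were 2.85, 1.95 and 1.60.

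Known targets of TGF-β and Smad signalling formed the list with the highest median difference, 1.12 over 16 tested genes. All 16 had a positive difference, against 6564 of all 14347 genes tested. Of these 16 targets, 6 were called higher and none lower (1.19% and 0.188% of all genes tested). Among the 6, *Col1a1* and *Col1a2* passed the filter on dim probes only through the TGF-β1 arrays. With detection required on all 6 arrays, 4 genes of the list were called and the median was 0.82. *Tgfbi*, a matrix protein gene named for its induction by TGF-β, rose by 4.58 (SE 0.31, limma adjusted p = 0.00247). *Ltbp2*, which encodes a relative of the latent TGF-β binding proteins, rose by 4.03 (SE 0.30, limma adjusted p = 0.00316), but only 1 of the 3 control arrays had it well above background. With normexp background *Ltbp2* rose by 1.76 and *Tgfbi* by 3.26, so that the sizes of both differences depend on the background setting. *Pmepa1*, a feedback inhibitor of the pathway, rose by 1.31 (SE 0.12, limma adjusted p = 0.0062). These 3 genes were called without each array in turn.

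*Fn1*, the gene of fibronectin, rose by 2.22 (limma adjusted p = 0.0279), but its call failed without control replicate 1 (2.00) or 2 (2.18) or TGF-β1 replicate 1 (2.07) or 2 (2.05). *Col1a1* and *Col1a2*, the chains of type I collagen, did not reach detection in the control group. On quantile-normalized signals a lower bound put them 3.46-fold and 3.38-fold higher on the TGF-β1 arrays. They entered the test only through detection on the TGF-β1 arrays, so no p is given for them and nothing is read from their calls. The bound sets the mean of the TGF-β1 arrays against the mean, over the control arrays, of the higher of the gene's own signal and the lowest signal of a probe well above background. Under normexp background both genes had smaller differences than this bound, 0.60 and 0.43 on the log2 scale, and were not called. Without control replicate 1 or 2 or TGF-β1 replicate 2 both lost the call. *Timp1*, a metalloproteinase inhibitor, had 2.04 (limma adjusted p = 0.0598), which passed with normexp background (1.93, limma adjusted p = 0.0283), and *Tgif1*, a repressor, 0.92 (limma adjusted p = 0.0226), short of 2-fold.

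Targets of YAP and TEAD other than *Ccn1* and *Ccn2* were followed as another list. Of 21 tested genes, none was called by limma at 2-fold, while 20 had a positive difference, 9 had an unadjusted p under 0.05 and 3 passed the adjusted p alone. Among all 14347 genes tested, 6564 had a positive difference, 3184 an unadjusted p under 0.05 and 292 an adjusted p under 0.05. Under the methods' t-test without adjustment the count of the list at 2-fold was also 0. The 3 genes were *Nt5e*, which encodes an ectonucleotidase (0.86, limma adjusted p = 0.0226), *Fjx1* (0.75, 0.0292) and *F3*, the gene of tissue factor (0.66, 0.0388), the last named after its value was seen. *Ccdc80* had the largest difference, 1.85 (limma adjusted p = 0.136), and was called once TGF-β1 replicate 3 was omitted (2.51, limma adjusted p = 0.00609). The median of the list was 0.32. *Ankrd1*, often measured together with *Ccn1* and *Ccn2* and also named after its value was seen, had 0.68 (limma adjusted p = 0.0836).

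Wnt/β-catenin targets and the IGF binding proteins completed the lists. Of 12 tested Wnt targets, 2 were called, both higher, as were 1.19% of all genes tested. They were *Tcf7* (1.25, SE 0.15, limma adjusted p = 0.0141) and *Sox9* (1.20, SE 0.21, limma adjusted p = 0.0468), both genes of transcription factors. *Sox9* lost its call without any array other than TGF-β1 replicate 3, where its difference was 0.98 to 1.31, and *Tcf7* without control replicate 1 (1.30) or 2 (1.25) or TGF-β1 replicate 2 (1.28). Under normexp background *Tcf7* had 0.55 and *Sox9* 0.92, and neither was called. *Axin2*, the usual reporter of this pathway and named after its value was seen, had 0.39 (limma adjusted p = 0.625), and the median was 0.38. *Lgr5*, a receptor gene, had 1.89 (limma adjusted p = 0.113; 1.14 with normexp background), *Tnfrsf19* -0.86 (0.21) and *Bmp4* 0.52 (0.264).

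Of the 7 IGF binding protein genes, which share the first module of the CCN proteins, 4 were tested and none was called by limma. An unadjusted p under 0.05 was found for 2 of them, *Igfbp2* and *Igfbp5*, of opposite sign, and for 3184 of all 14347 genes tested. *Igfbp2* had 2.37 (limma adjusted p = 0.11), *Igfbp5* -1.11 (0.125) and *Igfbp3* 0.48 (0.473). The methods' t-test without adjustment called 2 of them.

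**Figure D4:**
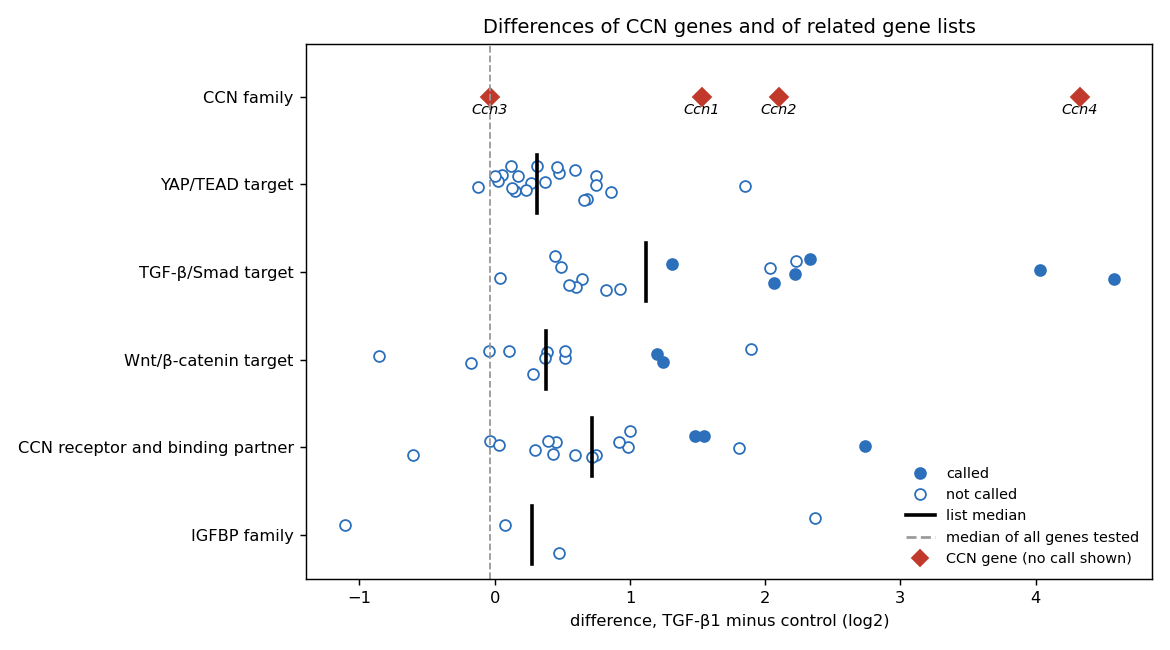
Difference of TGF-β1 minus control (horizontal axis, log2) for the 4 CCN genes that passed the filter (diamonds) and for the genes of the 5 lists (circles, filled where called). Black bars are list medians and the dashed line is the median of all genes tested. The medians lie between 0.28 and 1.12, right of the dashed line at -0.03. The lowest, that of the 4 IGF binding proteins, was 0.07 under scaling to the 75th percentile, where the median of all genes tested was -0.09. That of the Wnt targets was 0.22 without TGF-β1 replicate 1.

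Markers of other cell types were read beside these results, since fibroblasts and smooth muscle cells are known to express CCN genes. Of 9 fibroblast markers, 3 were well above background on all 6 arrays and *Pdgfrb*, *Col3a1*, *Lum* and *Postn* on none. Summed over the list, the linear signal was 583 to 654 on control and 708 to 2702 on TGF-β1 arrays. Most of it came from *Dcn*, which the list shares with the CCN partners. *Dcn* was 8.98, 8.81 and 8.96 in controls and 11.10, 9.68 and 8.98 after TGF-β1, and was not called (limma adjusted p = 0.273). The 2 genes called were *Col1a1* and *Col1a2*, which the list shares with the TGF-β and Smad targets. Both passed the filter only through the TGF-β1 arrays. *Thy1*, a surface protein of fibroblasts, was 4.14, 4.67 and 4.23 in controls and 8.19, 7.65 and 4.60 after TGF-β1, with replicate 3 close to the controls.

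Of 5 smooth muscle markers, *Myh11* and *Des* were not well above background on any array. *Cnn1*, an actin-binding protein of contractile cells, rose by 2.13 (limma adjusted p = 0.0231). *Tagln* had 2.00 (limma adjusted p = 0.0735) and *Acta2* 0.02 (limma adjusted p = 0.96). The summed signal of the list, mostly from *Acta2*, was 10640 to 17430 in controls and 12670 to 18230 after TGF-β1. Of 7 endothelial markers, 6 were not above background on any array, and the summed signal was 86.0 to 102 and 92.8 to 107. The leukocyte marker *Ptprc* was not above background either, though the sum of 7 leukocyte markers was 5604 to 6520 in controls and 8062 to 10170 after TGF-β1, mostly from *Itgam* and *Cd68*. The part of these cell types in the CCN differences was not tested.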

How the data were processed

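The authors hybridised RNA of 3 TGF-β1-treated and 3 control 2D-MAO cultures, described as biological replicates, to Agilent SurePrint G3 mouse arrays and extracted spots with Feature Extraction 11.0.1.1. The deposited values are intensities on a linear scale, background-subtracted within each array and not normalized between arrays. The deposited median intensities of spot and local background served the normexp alternative, as a mean is not in these files, and marks of 0 or 1 gave detection. From these, marked and control spots were left out, the log2 intensity was normalized by quantiles as in the authors' methods, and a probe was kept if at least 3 of 6 arrays had it well above background. Of 56599 probes, 32991 received a gene symbol through RefSeq accessions (GRCm38.p6). The array design was annotated on another build, so the only position given is that of the RefSeq promoter window. Each gene was represented by its brightest probe and tested with limma 3.58.1 in R 4.3.3. The methods' t-test is the unpaired test named by the study.

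The members, the 5 gene lists and the cell type markers were chosen with earlier results of these data known, and the promoter motifs after the data were seen. Named genes were all members, up to 6 called genes and the 3 largest other differences in each list, and the 3 genes most like each member. The values of 1 gene that this rule names are not reported here. The code was checked on simulated data. Probe sequences and CCN protein sequences were not used here. Precision is limited by the number of arrays. The p-values measure the spread between these cultures, which were not stated to come from separate mice.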

Additional observations from a re-analysis of the deposited data

How the results depend on the processing

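The number of arrays and, for *Ccn4*, *Ltbp2*, *Tgfbi*, *Col1a1* and *Col1a2*, the closeness of the control signal to background limit these results. The cause of the changes below was not tested, except that fewer arrays or more genes tested enter some settings by construction. Among member differences, *Ccn4* moved to 2.71 with normexp background and *Ccn1* to 1.90 within slide row 1. The 171 genes called higher became 49 with no filter, 594 with array weights, 627 within slide row 1, 312 with the methods' t-test unadjusted and 4 with it adjusted. The 27 called lower became 16 with normexp background, 11 with no filter, 212 with array weights, 45 with slide row as a block, 233 within slide row 1, 76 and 1 with the t-test unadjusted and adjusted, and 58 with no 2-fold threshold. With no filter, 0 CCN members, 3 TGF-β/Smad targets and 0 genes of the Wnt and receptor lists were called. The adjusted t-test called 0 in each of these. With the reported setting, limma gave 4 of 12 Wnt and 12 of 17 receptor genes at an unadjusted p under 0.05, against 3184 of all 14347. Wnt targets called were 0 with normexp background and 1 with slide row as a block. Within slide row 1 the counts were 4 for Wnt targets, 7 for receptors, 2 for YAP/TEAD targets and 1 for IGF binding proteins. Array weights gave 7 receptors, 1 YAP/TEAD target and 2 IGF binding proteins. With no 2-fold threshold 3 YAP/TEAD targets passed, and the unadjusted t-test called 2 IGF binding proteins.

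With each array left out in turn, 48 to 553 genes were called higher and 7 to 156 lower, where the lowest counts omit TGF-β1 replicate 2 and the highest omit TGF-β1 replicate 3. CCN members called ranged from 1 to 3, TGF-β/Smad targets from 3 to 8, Wnt targets from 0 to 3, receptors from 0 to 6, and YAP/TEAD targets and IGF binding proteins from 0 to 1. The replicate numbers are not stated to pair cultures, and same-numbered arrays deviated from their group means with correlations of -0.01, 0.33 and -0.05. With the replicate block, 85 genes were called higher, 1 Wnt target was called, and 2 CCN members, *Ccn2* and *Ccn4*, were called.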
